A study of Mus musculus with 2 samples.

Results

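EC_PROLIF is the class of dividing endothelial cells among the cells that line the blood vessels of mouse sciatic nerve. Its members were chosen by the authors' cell table, matched to the deposited counts by library and cell barcode, without cells whose barcode had at least 5 times more UMIs (unique molecules counted) in the other library. In the injured library all 162 labelled cells were kept, and in the intact library 11 of 38, so 173 of 2301 annotated cells were members. The results below rest on the 162 injured cells, which were 12.7% (95% interval 10.9 to 14.7) of the 1274 annotated endothelial cells kept in that library.

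Each condition was 1 library, from pooled sciatic nerves of adult mice. All groups carried Cdh5(PAC)-CreERT2, a tamoxifen-inducible Cre driven by a promoter of endothelial cells, and the R26-TomatoLSL reporter, and the sort took cells with TdTomato and without CD45, a surface protein of white blood cells. The labels spell the reporter Chd5CreER/R26-TdTomato. The intact group came from uninjured nerve, and the injured group, Injury_D7, came from the lesion site, the bridge of tissue between the nerve stumps, 7 days after injury. The number of animals, their sex and any dose of tamoxifen are not given in the sources used here. With 1 library per condition the data hold no replicates and allow no test, and every interval covers counting error only. The class was made by the authors from expression, so its levels against other classes describe it and test nothing.

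A dividing cell copies its DNA in S phase, condenses and aligns its chromosomes in mitosis, and then splits in cytokinesis. Genes for DNA copying are switched on by E2F factors, whereas many mitotic genes carry a short promoter element, the CHR (cell cycle genes homology region), that is bound by the DREAM and MMB-FOXM1 complexes. In growing vessels, division takes place mostly behind the leading tip cells, in stalk, venous and capillary endothelium.

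Member cells were deep, with a median of 24212.5 UMIs (1332 to 72153) and 5196 genes, where medians in the other 8 injured endothelial classes lay between 5208 and 16011.5 UMIs. The class had 4202429 UMIs in all, and a median mitochondrial share of 3.10%. Of its 162 cells, 30 had a barcode that also occurred in the intact library. Those 30 injured cells had at least 37690 UMIs and their intact partners at most 879, and all 30 partners were left out, 20 of them labelled EC_PROLIF. A doublet caller marked 4 of 2023 injured barcodes, too few to be informative, and none of them was a member.

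The listed genes of DNA copying and of mitosis differed in the short motifs they carry. Nearly all measured genes of these lists were higher in the class, so the motif shares below describe the lists. Promoters of some genes that set the class apart are shown first. Each is the 250 bases before the annotated start, from RefSeq in build GRCm38.p6, written 5′ to 3′ on the strand of the gene. Capitals mark a CHR match (TTTGAA or TTCGAA) or an E2F match (TTTCCCGC, TTTGGCGC, TTTCGCGC or TTTGCCGC) on either strand. Top2a, Mki67, Ube2c and Cdk1 are markers of the class, and Mcm5 is a helicase subunit of DNA copying.
Top2a promoter, chr11:99024190-99024439, minus strand: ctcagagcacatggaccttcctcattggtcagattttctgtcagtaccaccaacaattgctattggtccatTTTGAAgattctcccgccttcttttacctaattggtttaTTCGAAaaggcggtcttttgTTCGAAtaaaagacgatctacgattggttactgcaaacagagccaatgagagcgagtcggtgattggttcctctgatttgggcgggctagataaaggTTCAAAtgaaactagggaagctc
Mki67 promoter, chr7:135716380-135716629, minus strand: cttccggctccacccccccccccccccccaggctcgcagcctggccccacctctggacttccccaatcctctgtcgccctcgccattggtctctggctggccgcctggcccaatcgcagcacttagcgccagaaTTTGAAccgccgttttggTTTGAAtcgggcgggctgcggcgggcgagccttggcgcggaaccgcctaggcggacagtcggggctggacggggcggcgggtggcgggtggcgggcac
Ube2c promoter, chr2:164769679-164769928, plus strand: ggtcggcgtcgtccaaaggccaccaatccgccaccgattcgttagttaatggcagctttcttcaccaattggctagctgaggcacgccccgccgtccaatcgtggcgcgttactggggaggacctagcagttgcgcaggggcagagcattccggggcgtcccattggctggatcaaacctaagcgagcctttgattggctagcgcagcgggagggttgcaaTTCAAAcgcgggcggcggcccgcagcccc
Cdk1 promoter, chr10:69352913-69353162, minus strand: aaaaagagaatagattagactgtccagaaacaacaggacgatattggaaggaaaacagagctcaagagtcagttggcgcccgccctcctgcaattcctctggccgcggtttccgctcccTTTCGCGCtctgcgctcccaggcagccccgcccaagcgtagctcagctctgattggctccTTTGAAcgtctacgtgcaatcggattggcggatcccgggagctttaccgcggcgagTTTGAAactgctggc
Mcm5 promoter, chr8:75109259-75109508, plus strand: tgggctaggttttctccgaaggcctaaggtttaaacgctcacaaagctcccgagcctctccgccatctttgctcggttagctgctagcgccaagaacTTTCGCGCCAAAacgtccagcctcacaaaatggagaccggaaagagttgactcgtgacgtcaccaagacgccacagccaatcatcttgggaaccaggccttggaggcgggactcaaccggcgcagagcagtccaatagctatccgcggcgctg

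The Top2a window held 4 CHR matches, Mki67 and Cdk1 held 2 each and Ube2c held 1, while Mcm5 held none. Cdk1 also held 1 E2F match, and Mcm5 held 2 that overlap each other. These 5 were chosen to show matches, and not every gene of either group had one. Birc5, a class marker, and Ccnb1, the mitotic cyclin gene, had no CHR match, and Rrm2, a gene of DNA copying, had no E2F match in its window. Across windows from 250 bases before to 50 after the start, 66 of the 79 mitosis genes at least 2-fold higher in the class were matched to a promoter, and 48 of them (72.7%) held a CHR match. The share was 23.1% (9 of 39) among the higher replication genes, 13.4% of 6322 matched measured genes and 19.2% of all 32851 promoters of the table. E2F matches had the other order, at 30.8% (12 of 39) of the higher replication genes, 9.09% (6 of 66) of the higher mitosis genes, 4.59% of measured genes and 2.26% of all promoters. Of the higher genes outside the cycle lists, 132 were matched, with a CHR match in 42 (31.8%) and an E2F match in 17 (12.9%).

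The CCAAT box (CCAAT on either strand), a site of the factor NF-Y, was in 69.7% of the higher mitosis genes and 64.1% of the higher replication genes, against 38.9% of measured genes. CHR matches lay close to the start: 42 of the 66 mitosis genes (63.6%) had one that began within 50 bases of it, against 3.43% of measured genes. Among the mitosis groups, CHR matches were in 13 of 16 spindle and cytokinesis genes, 9 of 11 checkpoint genes, 9 of 11 condensation genes, 7 of 11 mitotic entry genes and 10 of 17 kinetochore genes. Matches of different motifs may overlap. A match is a string of letters and was not tested as a binding site.

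**Figure D1:**
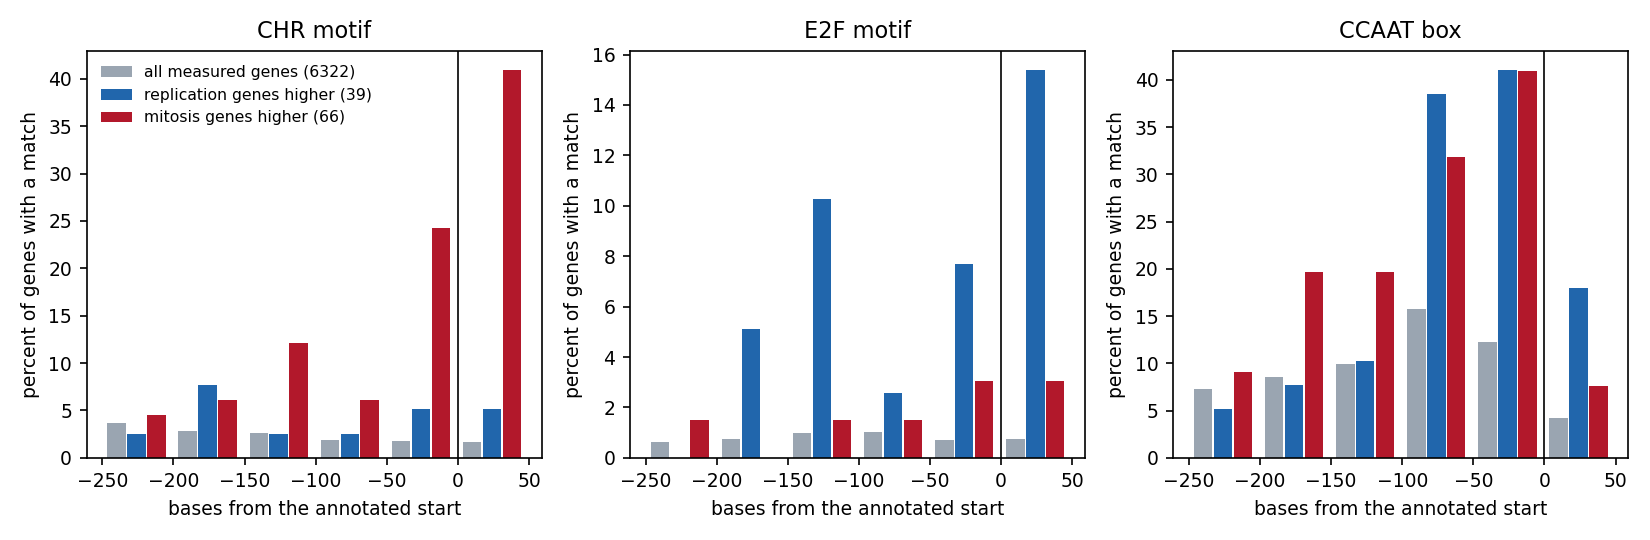
Share of genes (percent) with a motif match beginning in each stretch of 50 bases around the annotated start, for all measured genes (6322), replication genes higher in EC_PROLIF (39) and mitosis genes higher in EC_PROLIF (66). CHR matches of mitosis genes peak at 40.9% in the 50 bases after the start, and the CCAAT box reaches 40.9% in the 50 bases before it.

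The levels of the 5 markers separated the class from every other injured class. Levels are in CPM, counts per 1e6 UMIs summed over the cells of a class, with exact Poisson 95% intervals. Mki67, which coats mitotic chromosomes, stood at 314 CPM (297 to 331) in EC_PROLIF, 17.2 in EC_TIP, 16.0 in EC_VEN-PV-, 15.1 in EC_IMMAT, 8.41 in EC_VEN-PV+, 7.61 in EC_CAP-PV-, 7.38 in EC_ART and 0 in EC_BAR and EC_CAP-PV+. Top2a, the topoisomerase that untangles replicated DNA, stood at 316 CPM (299 to 333) in the class, at 45.1 in EC_BAR and 27.1 in EC_ART, and at 11.1 or less in the other 6. No other class came near the member cells, and EC_BAR, with 45.1 CPM of Top2a, had no UMI of Mki67.

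Birc5, a chromosomal passenger protein, was at 363 CPM (345 to 381) in the class and at most 19.8 elsewhere, in EC_TIP. Ube2c, the ubiquitin ligase partner that starts protein destruction at anaphase, was at 408 CPM (389 to 428) against at most 12.2, in EC_IMMAT. Cdk1, the kinase of mitotic entry, was at 282 CPM (266 to 298) against at most 25.4, in EC_TIP. Against the other 8 classes summed, the 5 markers were 57.5-fold (Ube2c), 45.4-fold (Birc5), 32.4-fold (Top2a), 27.2-fold (Mki67) and 16.8-fold (Cdk1) higher.

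**Figure D2:**
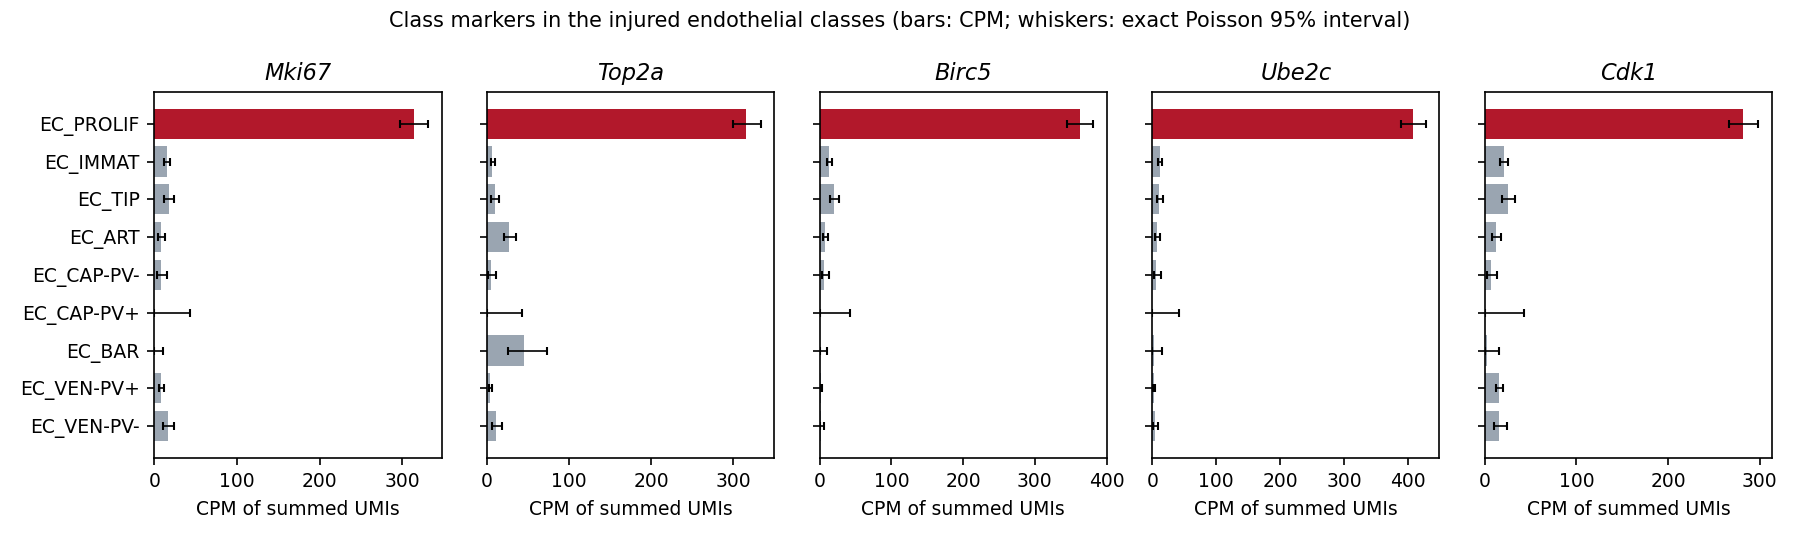
CPM of summed UMIs (bars, with exact Poisson 95% intervals) of the 5 class markers in the 9 injured endothelial classes. EC_PROLIF lies between 282 and 408 CPM for all 5, and the highest value of any other class is 45.1 CPM, for Top2a in EC_BAR.

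Markers were also read cell by cell, with each cell thinned to 3000 UMIs so that depth was equal, which left out 5 member cells and 46 others as too shallow. At least 2 of the 5 markers had a UMI in 120 of 157 member cells (76.4%, 69.0 to 82.8) and in 17 of 1066 cells of the other classes (1.59%, 0.932 to 2.54). All 5 were seen in 21 member cells and no other cell, and 16 member cells showed none. Mki67 alone was in 49.7% of thinned member cells and 3.38% of the others, and without thinning in 88.3% of member cells. Of the 89 mitosis genes listed, a member cell had a median of 20 with a UMI (3 to 41) and a cell of another class a median of 2 (0 to 18). Cells at or above the 10th percentile of member cells, 7 mitosis genes, numbered 143 in EC_PROLIF and 31 in other classes, of which 15 were EC_IMMAT, 7 EC_TIP, 6 EC_ART and 1 each EC_CAP-PV-, EC_VEN-PV+ and EC_VEN-PV-.

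Over all genes, more were higher than lower in the class against the other injured endothelium. A gene counted as measured where the mean of both levels reached 10 CPM, and as higher or lower at a log2 ratio of 1 or more in size, with 5 CPM added to both values. Of 8185 measured genes, 317 (3.87%) were at least 2-fold higher and 73 (0.892%) at least 2-fold lower, and the median log2 ratio was -0.02. In cells thinned to 3000 UMIs, 419 were higher and 238 lower. Thinning gives each cell equal depth but also leaves far fewer UMIs in each sum, so these counts carry more counting error. Its part in them was not tested. Lower genes numbered 127 with equal weights of the other classes, 125 with 1 CPM added and 22 with 20 CPM added. With only barcodes of 1 library, in the members (132 cells) and in the other classes alike, the counts were 348 higher and 80 lower. Genes of the 11 cell cycle lists took 2.46% of all UMIs in the class and 0.581% in EC_IMMAT. Those lists hold 199 genes, and 149 of the 175 measured were higher. Outside them, 168 of 8010 measured genes were higher and 72 lower.

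Replication genes were higher almost throughout. Of 51 measured members of the lists for origin licensing and for forks and nucleotides, 48 were at least 2-fold higher, beside 3.87% of all measured genes. The 3 others, Gins4, Pold3 and Pola2, had log2 ratios of 0.88, 0.88 and 0.97. Mcm5 stood at 118 CPM (108 to 129) in the class and between 0 (EC_CAP-PV+) and 24.9 (EC_TIP) in the others, 8.49-fold over their sum (7.23 to 10.0). The other measured subunits of the MCM helicase, which opens DNA at origins, ranged from 3.25-fold (Mcm6) to 5.81-fold (Mcm7) higher. Gmnn, which blocks a second round of licensing, was 8.47-fold higher, and Cdt1, the loading factor it blocks, 7.79-fold.

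At the fork, Pclaf, a partner of the sliding clamp PCNA, stood out. It was at 382 CPM (364 to 402) in EC_PROLIF, 18.8 in EC_TIP and below 7 in the other 7 classes. The clamp gene Pcna itself was only 3.22-fold higher (2.85 to 3.64), at 118 against 36.6 CPM. Rrm2, the regulated subunit of the enzyme that makes deoxynucleotides, was 36.5-fold higher (104 against 2.85 CPM), and its partner Rrm1 7.84-fold. Tk1, which salvages thymidine, was 26.4-fold higher, and Tyms, which makes thymidylate, 4.77-fold. Dnmt1 and Uhrf1, which copy DNA methylation onto the new strand, were 4.88-fold and 13.4-fold higher.

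The highest log2 ratio of the 8185 measured genes, 6.59, belonged to a histone gene. Hist1h2ap was at 1425 CPM (1389 to 1461) in the class and between 5.57 and 14.3 CPM in the other 8, a ratio of 145 (124 to 171). The linker histone gene Hist1h1b had 669 UMIs in the class (159 CPM) and 10 in all other classes (0.633 CPM). Of 10 measured genes of the histone list 9 were at least 2-fold higher, and Hist1h1c, at 44.0 against 29.0 CPM, was not. Clustered histone genes have near-identical copies, so counts may be split between them and single genes are uncertain. H2afz, a variant histone gene outside the clusters, was the most abundant of the list at 2016 CPM (1974 to 2060) against 520 CPM.

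Mitosis genes were higher in 79 of 82 measured cases, with a median log2 ratio of 3.05. The 3 others were Wee1, which holds back mitotic entry (log2 ratio 0.50), the kinetochore gene Zwint (0.62) and the securin gene Pttg1 (0.05), which stood at 34.5 CPM in the class and 33.1 in the rest. Among cyclins, Ccna2 was 94.4-fold higher (61.7 to 152), at 132 against 1.39 CPM. Ccnb1 was 65.1-fold higher (42.3 to 105), at 90.7 against 1.39 CPM, and Ccnb2 14.2-fold. Ccnb1 had no UMI in EC_BAR, EC_CAP-PV+ and EC_VEN-PV-, and its highest level in another class was 5.58 CPM in EC_TIP.

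At the kinetochore, where chromosomes meet the spindle, Cenpf was 57.4-fold and the motor gene Cenpe 34.1-fold higher, and Cenpa, the histone that marks centromeres, was at 216 against 14.4 CPM. Of 21 measured kinetochore genes 20 were at least 2-fold higher. Chromosome condensation genes were higher in 12 of 12 cases, from Ncapd3 (4.21-fold) and Smc4 (4.17-fold), subunits of condensin that other cells also make, to Ncapg (44.1-fold). Hmgb2, a DNA-bending protein, was the most abundant of this list at 1251 CPM (1218 to 1285) against 165.

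Spindle and cytokinesis genes were higher in 19 of 19 cases and had the largest median log2 ratio of any list, 3.31. Nusap1, which bundles spindle microtubules, was at 117 against 0.824 CPM, Prc1, which organises the midzone, at 167 against 3.04, and Hmmr at 83.3 against 0.697. Kif11, the motor that separates the poles, was at 68.8 CPM and 72.4-fold higher. Stmn1, which destabilises microtubules, was the most abundant at 802 CPM against 104. In the checkpoint list 13 of 14 measured genes were higher, among them the kinase gene Bub1 (48.8 against 0.824 CPM) and Cdc20, the activator of anaphase (23.3-fold). Tubulin genes were higher in 6 of 9 cases, led by Tuba1b at 536 against 91.3 CPM.

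**Figure D3:**
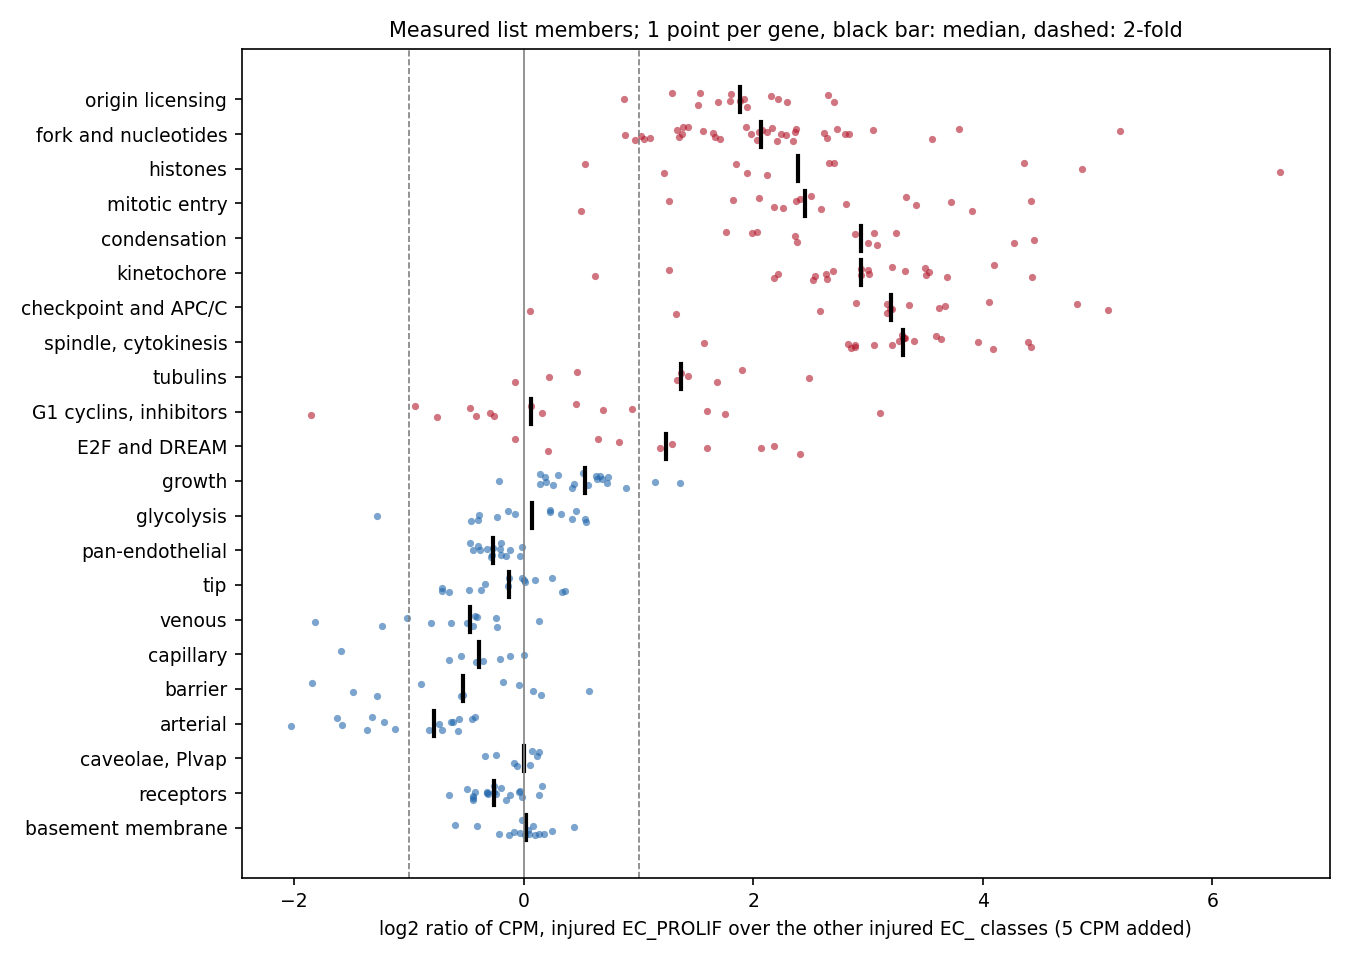
log2 ratio of CPM of each measured list member in injured EC_PROLIF over the other 8 injured endothelial classes, 5 CPM added, 1 point per gene, with list medians as black bars. Medians of the replication, histone and mitosis lists lie between 1.88 and 3.31, and those of the arterial, venous, capillary, barrier, tip and pan-endothelial lists between -0.78 and -0.13.

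Cyclins and inhibitors of the G1 phase, when a cell decides to divide, did not follow the others: 3 of 15 measured genes were higher, 1 was lower and the median log2 ratio was 0.06. Ccne2, the cyclin of S phase entry, was 9.64-fold higher (18.3 against 1.90 CPM), Cdkn2c 3.64-fold and Cdkn3, a phosphatase gene of mitosis, 33.5-fold. Cyclin D genes differed among themselves. Ccnd1 stood at 194 CPM in EC_PROLIF and between 77.3 and 255 in the others, and Ccnd3 at 60.7 against 57.9 CPM. Ccnd2 stood at 11.9 CPM (8.83 to 15.7) in the class, near EC_TIP (10.7) and EC_IMMAT (16.3), and far below EC_BAR (265) and EC_ART (193). Its level was 4.71-fold lower (3.54 to 6.39) than in the other classes summed.

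The inhibitor gene Cdkn1a (p21) stood at 61.4 CPM in the class, above EC_TIP (30.4) and EC_IMMAT (37.6) and below the other 6, which ranged from 71.7 to 265. Among regulators of transcription, E2f1 was 7.46-fold, Foxm1 13.2-fold and Mybl2 27.9-fold higher, whereas Rb1, the E2F restraint, was at 29.5 against 24.9 CPM. Of 10 measured genes of that list 6 were higher. Growth genes were slightly higher as a group, with 19 of 20 ratios above 1, a median log2 ratio of 0.54, and 2 past 2-fold, Ran (854 against 329 CPM), which directs spindle assembly and nuclear transport, and its binding partner Ranbp1 (396 against 177 CPM). Myc was at 50.5 against 59.4 CPM. Glycolysis genes had a median log2 ratio of 0.07, with 0 of 14 higher and 1 lower, the glucose transporter gene Slc2a1.

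Among genes outside the cycle lists, those with the highest ratios are themselves mostly known from dividing cells. Pbk, a mitotic kinase, was at 84.2 CPM against 9 UMIs in all other classes (0.570 CPM), and Pimreg, a regulator of chromosome segregation, at 79.5 CPM (69.7-fold). Shcbp1 (70.8-fold), the formin gene Diaph3 (21.2-fold) and the kinetochore gene Cenpq (19.1-fold) followed. Lockd, a long non-coding RNA gene, was 13.6-fold higher at 72.3 CPM. Lmnb1, a nuclear lamina protein, stood at 203 CPM (7.28-fold), and Dnajc9 and Hat1, which handle new histones, were 8.96-fold and 4.97-fold higher.

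Member cells were not all alike in phase. After thinning to 10000 UMIs, which kept 133 cells, UMIs of 3 histone genes (Hist1h2ap, Hist1h1b and Hist1h2ae) and of 4 genes that peak late in G2 and mitosis (Ube2c, Cdc20, Ccnb1 and Plk1) were counted per cell. The genes and the limit of 3 UMIs were chosen after the data were seen, and 28 cells lay within 1 UMI of a limit, so the groups are ranges and not cell types. Histones alone passed in 23 cells (17.3%, 11.3 to 24.8), late genes alone in 27 (20.3%, 13.8 to 28.1), both in 49 (36.8%, 28.7 to 45.6) and neither in 34 (25.6%, 18.4 to 33.9).

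Some cycle genes that did not set the groups differed widely between them. Cenpa had a mean of 552 CPM in cells with late genes alone and 69.6 CPM in cells with histones alone. Mcm5 ran the other way, at 37.0 CPM in cells with late genes alone, 104 in those with histones alone and 191 in those with neither. The 34 cells with neither had a median of 26.5 replication genes and 21 mitosis genes with a UMI, a mean of 121 CPM of Mki67 and no UMI of Hmmr. Rrm2 was highest in cells with both, at 153 CPM. Among vessel genes Plvap lay between 1085 and 1309 CPM in the 4 groups and Cldn5 between 178 and 326 CPM. Selp ranged from 107 CPM (late genes alone) to 400 (histones alone), Gja4 from 11.1 to 47.8 in the same groups, Ackr1 from 40.7 (late genes alone) to 132 (neither) and Apln from 56.5 (histones alone) to 135 (both). Among cycle genes, Pcna ranged from 74.1 to 191 CPM and Tk1 from 61.8 to 129, all from few cells.

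**Figure D4:**
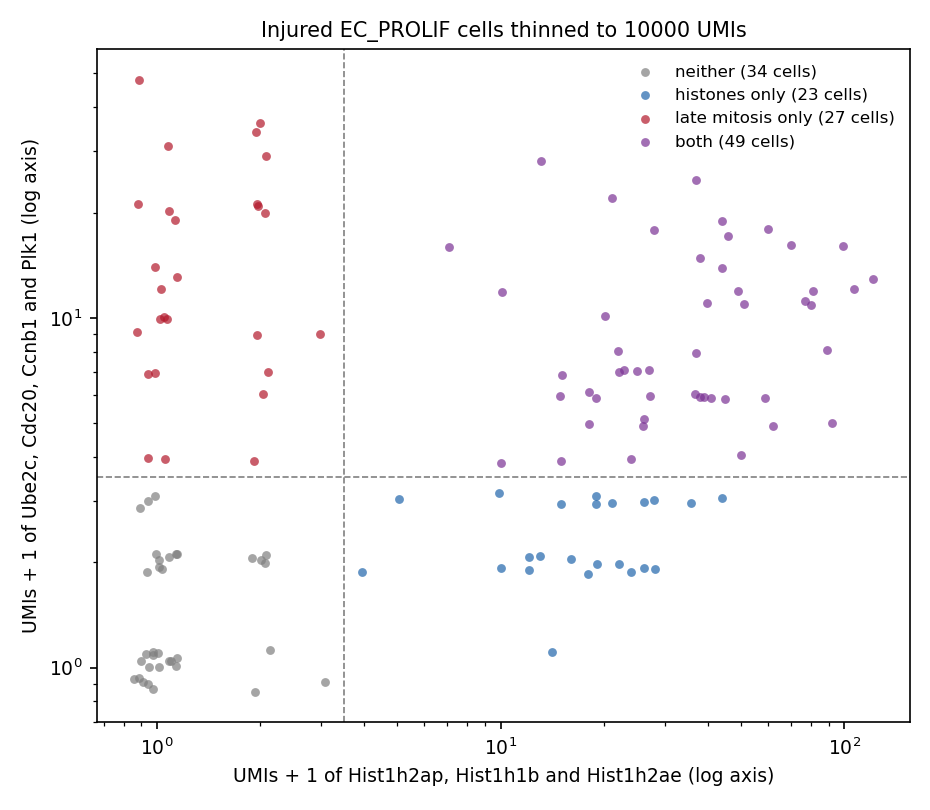
UMIs of 3 histone genes (x axis) and 4 late mitotic genes (y axis) in 133 injured EC_PROLIF cells thinned to 10000 UMIs, on log axes with 1 added and a small random shift. Dashed lines mark the limit of 3 UMIs, which leaves 34 cells with neither, 23 with histones only, 27 with late genes only and 49 with both.

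The member cells kept the general endothelial program at slightly lower relative levels. Of 15 pan-endothelial genes, 0 were 2-fold apart in either direction, and all 15 ratios were below 1 (median log2 ratio -0.27). Over all 8185 measured genes, 3.87% were at least 2-fold higher and 0.892% lower, with a median log2 ratio of -0.02. Most genes of any list thus lay within 2-fold. Cdh5, the adhesion protein VE-cadherin, was at 1013 CPM (982 to 1043) in the class and between 803 (EC_VEN-PV-) and 1681 (EC_CAP-PV-) in the others. The reporter TdTomato was at 72.8 CPM (64.9 to 81.5) against 103 CPM. Cdh5 had a UMI in 161 and Plvap in 160 of the 162 cells. Plvap, the diaphragm protein of leaky vessels, stood at 1224 CPM, between EC_TIP (714) and EC_VEN-PV+ (1716), and the list of caveolae genes had a median log2 ratio of 0.00. Receptors of growth factor and Notch signals (0 of 20 past 2-fold, median log2 ratio -0.26) and basement membrane genes (0 of 16, median 0.02) were also within 2-fold, among them Kdr, the main VEGF receptor, at 344 against 347 CPM, and Col4a1, at 2673 against 2361 CPM.

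Among vessel identity lists the arterial one was the most broadly low against the other classes summed, which include EC_ART. Of 16 arterial genes 7 were at least 2-fold lower and 16 of 16 ratios were below 1, beside 0.892% lower among all measured genes. The list summed to 894 CPM in the class, near EC_IMMAT (859), EC_TIP (797) and EC_VEN-PV+ (981). Its sum was 1917 in EC_VEN-PV-, 1947 in EC_CAP-PV+, 1976 in EC_CAP-PV-, 4075 in EC_BAR and 6709 in EC_ART. Single list genes made up much of some sums, such as Mgp in EC_VEN-PV- (1093) and Cxcl12 in EC_CAP-PV- (886). A sum near that of the class can also have another make-up, with Cxcl12 at 40.8 CPM in EC_VEN-PV+ and 212 in the class. Gja4, a gap junction gene of arteries, stood at 27.4 CPM (22.6 to 32.9) in EC_PROLIF, 599 in EC_ART, 273 in EC_BAR, 59.9 in EC_CAP-PV-, 57.6 in EC_CAP-PV+, 24.4 in EC_IMMAT, 6.09 in EC_TIP, 0.841 in EC_VEN-PV+ and 0.696 in EC_VEN-PV-. The class thus lay near EC_IMMAT, far below EC_ART and above the venous classes. Mgp, a matrix protein that binds BMP, was 4.22-fold lower (3.83 to 4.67), at 102 CPM against 1361 in EC_BAR, 1259 in EC_ART and 1093 in EC_VEN-PV-. EC_VEN-PV+ was at 366 CPM. EC_IMMAT (91.0) was near the class, and EC_CAP-PV- (63.7), EC_CAP-PV+ (11.5) and EC_TIP (7.61) were below it. With 20 CPM added in place of 5, 4 arterial genes remained past 2-fold, and 4 also with a filter of 50 CPM.

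Venous genes were lower in 3 of 12 cases, beside 0.892% of all measured genes, and their summed level was 2909 CPM against 3385 in EC_IMMAT. The count was 2 with 20 CPM added, with equal weights of the classes and with the cycle lists left out of the total. It was also 2 in cells under 5% mitochondrial UMIs. Ackr1, a chemokine-binding protein of venules, stood at 72.1 CPM (64.2 to 80.7) in the class, 652 in EC_VEN-PV-, 632 in EC_VEN-PV+, 55.4 in EC_IMMAT, 29.5 in EC_CAP-PV- and below 8 in the other 4. Selp, the adhesion protein P-selectin, stood at 285 CPM (269 to 302), against 1385 in EC_VEN-PV+, 1041 in EC_VEN-PV-, 231 in EC_IMMAT and below 82 in the others. Its log2 ratio of -1.02 was -0.30 when the 8 other classes had equal weight, since EC_VEN-PV+ is the largest of them. Aplnr, the apelin receptor of veins and sprouting vessels, was at 553 CPM, near EC_TIP (528), EC_VEN-PV+ (623) and EC_IMMAT (670) and above EC_ART (68.4).

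Barrier genes, which seal the vessels of resting nerve, were lower in 3 of 11 measured cases, beside 0.892% of all measured genes. The tight junction gene Cldn5 stood at 234 CPM (220 to 250) in the class, 2288 in EC_BAR, 2046 in EC_ART, 1030 in EC_CAP-PV-, 896 in EC_TIP, 446 in EC_IMMAT, 363 in EC_VEN-PV-, 253 in EC_CAP-PV+ and 75.9 in EC_VEN-PV+. Only EC_VEN-PV+ was below EC_PROLIF. Slc2a1, the glucose transporter of barrier vessels, was at 28.3 CPM (23.5 to 33.9) against 640 in EC_BAR, and Spock2 was at 5.47 against 564. For Slc2a1, EC_TIP (23.85), EC_CAP-PV- (33.3), EC_CAP-PV+ (34.6) and EC_IMMAT (35.6) were near the class. EC_VEN-PV+ (54.7), EC_ART (117) and EC_VEN-PV- (167) were above it. With equal weights of the classes 8 barrier genes were past 2-fold, because EC_BAR then counts as much as larger classes, and Slc2a1, at a log2 ratio of -1.28, was at -0.99 with 20 CPM added.

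Tip cell genes were within 2-fold in 15 of 15 measured cases when the other classes were summed, but EC_TIP itself was well above the members. Over all measured genes only 3.87% were higher and 0.892% lower, so that count was near the general share. Apln, the apelin ligand, was at 101 CPM in EC_PROLIF, 239 in EC_TIP, 81.0 in EC_VEN-PV+, 75.1 in EC_CAP-PV- and 65.1 in EC_IMMAT. After thinning to 3000 UMIs its log2 ratio of 0.36 became 1.00. Cxcr4, the receptor of Cxcl12, was at 22.1 CPM against 200 in EC_TIP, and Esm1 at 53.8 against 157. Capillary genes were lower in 1 of 8 cases, beside 0.892% of all measured genes. This was the water channel gene Aqp1, at 239 CPM against 1676 in EC_VEN-PV- and 954 in EC_CAP-PV-. The capillary count was 2 with equal weights of the classes and 2 in cells thinned to 3000 UMIs. Fabp4, a fatty acid carrier of capillaries, stood at 2623 CPM, near EC_IMMAT (2283) and below EC_CAP-PV- (16981).

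**Figure D5:**
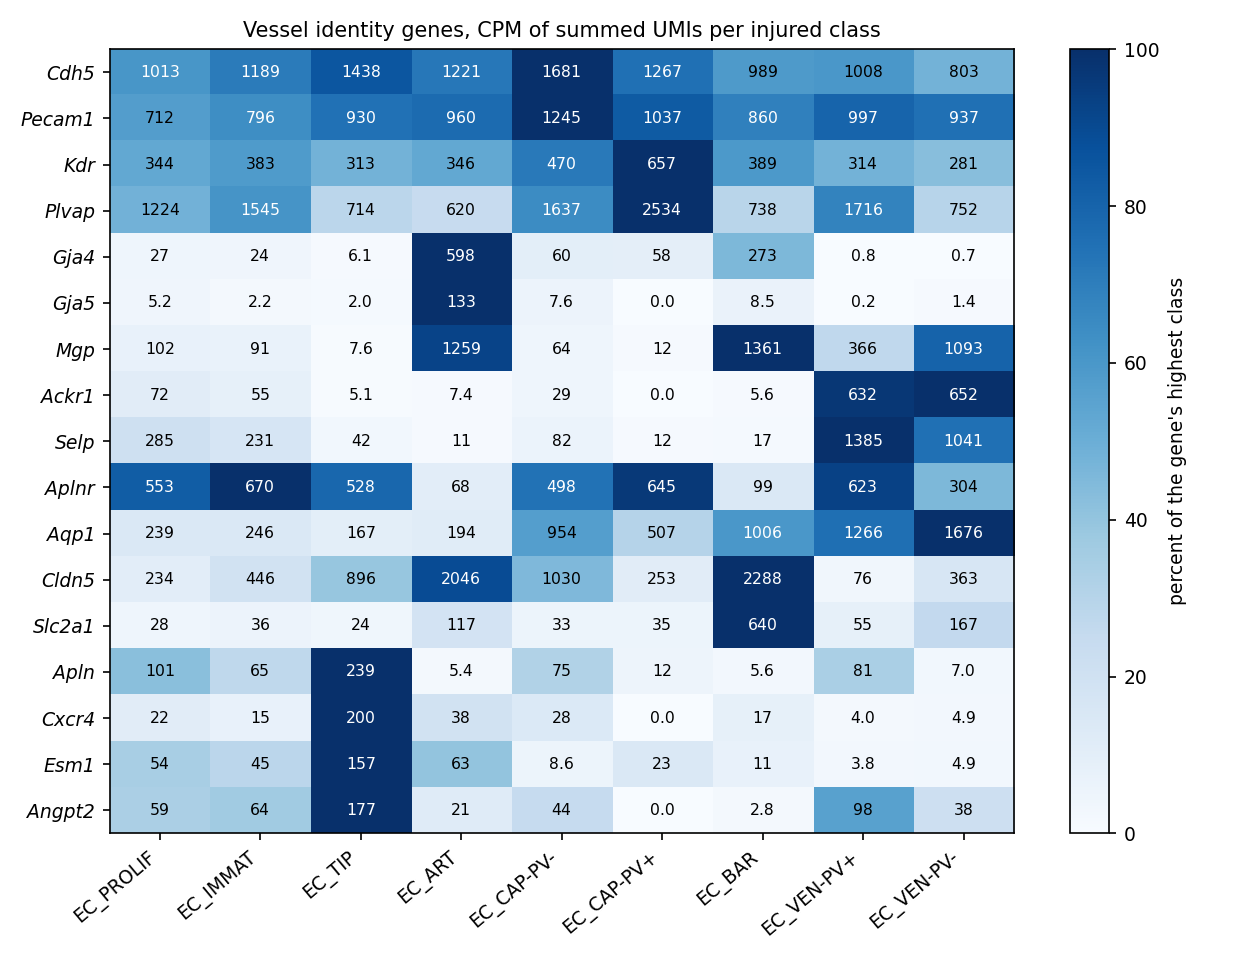
CPM of vessel identity genes in the 9 injured endothelial classes, with shading by the percent of each gene's highest class. EC_PROLIF resembles EC_IMMAT in most rows, with 27.4 against 24.4 CPM of Gja4, 72.1 against 55.4 of Ackr1 and 239 against 246 of Aqp1.

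Beyond the identity lists, the lowest ratios included several genes of no vessel list. Mal, a membrane protein, was 9.67-fold lower (7.26 to 13.2), at 11.4 CPM in the class, 15.8 in EC_IMMAT, 1.52 in EC_TIP and 1172 in EC_BAR. The metallothionein gene Mt2 (5.96-fold), Apoe, a lipid carrier (3.82-fold), Lgals3 (3.57-fold), the cytokine gene Csf3 (3.37-fold), the elastin gene Eln (3.33-fold) and Slfn5 (3.09-fold) were also lower. In EC_TIP 5 of these 7, Mt2, Lgals3, Csf3, Eln and Mal, were lower still. EC_IMMAT was near the class for Mt2 (13.9 against 10.2 CPM), Lgals3 (33.7 against 25.2) and Csf3 (22.9 against 18.8). It was below the class for Eln (21.7 against 55.4) and above it for Apoe (145 against 75.0) and Slfn5 (204 against 93.5). EC_ART was below the class for Mt2 (1.97) and Apoe (47.7), and above it for Mal, Lgals3, Csf3, Eln and Slfn5.

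Compared across 2991 genes outside the cycle lists, EC_PROLIF was most like EC_IMMAT. The Pearson correlation of log2 CPM was 0.972 with EC_IMMAT, 0.935 with EC_TIP, 0.923 with EC_VEN-PV+, 0.913 with EC_CAP-PV-, 0.896 with EC_ART, 0.891 with EC_VEN-PV-, 0.864 with EC_BAR and 0.822 with EC_CAP-PV+. These are descriptions across genes, all classes share 1 library, and the last 2 classes had few UMIs (354861 and 86810). Genes at least 2-fold apart numbered 42 against EC_IMMAT, 153 against EC_TIP and 162 against EC_VEN-PV+. Among all measured genes, cycle genes included, the higher and lower shares were 4.79% and 2.87% against EC_VEN-PV+, 5.88% and 4.95% against EC_ART, 5.91% and 4.28% against EC_VEN-PV-, and 6.16% and 3.56% against EC_CAP-PV-. Against the small classes they were 9.71% and 6.85% (EC_BAR) and 13.3% and 15.9% (EC_CAP-PV+).

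Against EC_IMMAT alone, 313 of 8067 measured genes (3.88%) were at least 2-fold higher in the class and 8 (0.0992%) lower, and 164 of the higher and all 8 of the lower lay outside the cycle lists. The lowest by the naming rule were Kdm5b, a histone demethylase (2.72-fold lower), AY036118, a ribosomal RNA-related transcript (792 against 1734), Mxd4, an antagonist of MYC (75.4 against 167), and Slfn5 (93.5 against 204). Mvp, a vault protein gene and the next by that rule, was at 24.3 against 51.5 CPM and missed the limit, with a log2 ratio of -0.95. Against EC_TIP, 430 of 8093 genes (5.31%) were higher and 178 (2.20%) lower. The lower ones were led by Chga (69.0 against 739 CPM), the growth factor gene Pgf (12.9 against 121), Cxcr4, the kinase gene Dapk2 (22.1 against 161) and the interferon-induced gene Rsad2 (11.9 against 77.6), and the higher ones outside the cycle lists included Slco2a1, a prostaglandin transporter (158 against 8.63), Eln and the selectin gene Sele (75.7 against 4.06).

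The spread of identity genes over cells was described by the share of UMIs in the 16 richest cells, which held 21.5% of the UMIs of all genes. That share is higher for a gene with few UMIs by counting alone, and no value at equal counts was computed, so genes are not ranked by it. It was 93.9% for Gja4 (115 UMIs in 23 cells), 64.5% for Cxcr4 (93 UMIs in 45 cells), 65.4% for Ackr1 (303 UMIs in 57 cells) and 55.2% for Apln (424 UMIs in 77 cells). For genes with more UMIs it was 51.8% for Selp (1199), 43.4% for Cldn5 (985), 42.3% for Rgcc (1172), 39.2% for Nr2f2 (559), 37.3% for Vwf (834), 29.2% for Plvap (5142) and 28.5% for Aplnr (2323). With at least 2 UMIs as present, 13 of 162 member cells had Gja4 without Ackr1, 42 had Ackr1 without Gja4, and 1 had both. In the 260 EC_IMMAT cells these counts were 15, 38 and 0. Cells were not thinned here. Median depth was 24212.5 UMIs in the members and 11256 in EC_IMMAT, so counts of the 2 classes are not directly comparable. Cxcr4 and Ackr1 gave 18, 41 and 2 (EC_IMMAT 14, 37 and 1), Gja4 and Selp 13, 72 and 1 (15, 106 and 0), Gja4 and Cxcr4 13, 19 and 1 (12, 12 and 3), and Cxcr4 and Selp 14, 67 and 6 (8, 99 and 7). No number of cells with both that chance would give was computed.

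At equal depth of 3000 UMIs, Ackr1 had a UMI in 17.2% of member cells (35.2% without thinning), 66.7% of EC_VEN-PV+ and 1.53% of EC_ART, a class that should lack it. Gja4 was in 6.37% of member cells (14.2% without thinning), 71.0% of EC_ART and 0.282% of EC_VEN-PV+. Member shares thus lay above the background class and far below the class each gene marks. EC_IMMAT was similar, with Ackr1 in 12.2% (8.445 to 16.9) and Gja4 in 4.33% (2.18 to 7.62) of cells. In EC_CAP-PV- the shares were 5.63% and 9.86%. Median depths before thinning were 24212.5 UMIs in EC_PROLIF, 11107 in EC_ART and 10151.5 in EC_VEN-PV+.

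Each thinned member cell was then assigned to the nearest of 7 classes by its counts outside the cycle, without genes over 1.5-fold higher in the class. Over 2680 genes 100 of 157 cells (63.7%, 55.7 to 71.2) were nearest EC_IMMAT, 24 EC_TIP, 20 EC_VEN-PV+, 5 EC_ART, 5 EC_VEN-PV-, 3 EC_CAP-PV- and 0 EC_BAR. Own cells of those classes returned to their class in 63.6% (EC_BAR) to 90.5% (EC_VEN-PV-) of cases. With only the 82 genes of the identity lists the order at the top was the same, with 60 cells nearest EC_IMMAT, 31 EC_TIP, 22 EC_VEN-PV+, 20 EC_CAP-PV-, 15 EC_VEN-PV- and 9 EC_ART, and 31 cells were near a tie. With these genes own cells returned in 62.2% (EC_IMMAT) to 96.6% (EC_VEN-PV-) of cases. Of the 254 EC_IMMAT cells, 55 were near a tie. No member cell was nearest EC_BAR in either count.

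Markers of other cell types were low. The macrophage and blood cell genes Ptprc, C1qa, C1qb, Csf1r, Adgre1 and S100a8 had no UMI in the 162 cells, and the myeloid list summed to 6.66 CPM, within the range of other classes (5.58 to 14.1). The Schwann cell list summed to 1.43 CPM, with Sox10, Mbp, S100b and Ngfr at 0, and the lymphoid list to 1.19 CPM. These ranges leave out EC_CAP-PV+, which had few UMIs. The fibroblast list summed to 43.8 CPM, above the range of other classes (30.6 to 39.5), with Dpt at 0. The pericyte list summed to 70.9 CPM (other classes 13.2 to 216), of which Acta2 gave 51.9, and 8 cells had at least 10 UMIs of the list. The perineurial list summed to 45.5 CPM (7.61 to 162), mostly Itgb4 at 39.3, and the lymphatic list to 34.3 CPM (18.8 to 47.2), mostly Flt4 at 29.3. The part of such cells in the results was not tested.

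The intact library added 11 members with 46028 UMIs, a base too small for gene-wide comparison. Of these, 4 cells had 530 to 731 UMIs and a barcode that occurred at similar depth in the injured library, and 4 lymphoid UMIs lay among them. The 7 others held 43344 UMIs and none of the lymphoid list. In the 11 cells the mitosis genes summed to 11167.1 CPM (10222.5 to 12175.6), beside 10260.7 CPM in the injured members and 718 CPM in the other intact endothelium.

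Birc5 was at 348 CPM (199 to 565, 16 UMIs) and Mki67 at 196 CPM (89.4 to 371, 9 UMIs) in the intact members. Cdh5 was at 978 CPM (713 to 1308) against 1013 in the injured members, and Pecam1, an adhesion protein of all endothelium, at 978 CPM (713 to 1308) against 712. Cldn5 was at 1608 CPM (1262 to 2018) in the intact members, 234 in the injured members and 2644 in the other intact endothelium. Slc2a1 was at 282 CPM (150 to 483), 28.3 and 490 in the same order, and Mest, an imprinted gene, at 21.7 CPM (0.550 to 121, 1 UMI), 621 and 9.56. For these 3 genes the intact members thus lay on the side of the other intact cells. In the 7 cells with an unshared barcode, Cldn5 was at 1707 CPM, Slc2a1 at 300 and Mest at 23.1. The 27 intact cells left out held 20460 UMIs, with Mest at 1271 CPM (830 to 1862) and Cldn5 at 244 CPM (79.3 to 570). Injury cannot be told apart from animals, sorting and sequencing, since each condition was 1 library.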

How the data were processed

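The authors deposited matrices of UMI counts per gene and barcode, not normalized, made with Cell Ranger 3.0.2 per the file headers, and a cell table with a class per cell. The submitters' processing notes also list Cell Ranger 6.1.2, Seurat 4.0.1, mm10 and GRCm38. How cells were filtered, classed or checked for doublets is not stated in the labels or headers. The injured library held 2023 barcodes and 27157892 UMIs and the intact one 1618 and 9401203, and 298 barcodes occurred in both.

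UMIs were summed per class and given as CPM with exact Poisson 95% intervals, ratios with exact conditional binomial intervals and shares with exact Clopper-Pearson intervals (Python 3.11.15, scipy 1.17.1). Log2 ratios had 5 CPM added, a measured gene had a mean of at least 10 CPM, and called genes were 2-fold apart. Thinning drew UMIs without replacement (seed 1). The nearest class was the highest multinomial log likelihood over class sums, leaving out the cell itself, with ties within 2 log units. Scrublet ran through scanpy 1.11.5. The summing was tested on simulated data.

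The members and the 29 gene lists were chosen with earlier results of these data known. Named genes were the 20 highest and 15 lowest log2 ratios and the 15 highest outside the cycle lists, at 50 CPM and 30 UMIs or more in the higher group, without mitochondrial, ribosomal, predicted, haemoglobin, immunoglobulin and sex-linked genes, plus the 5 markers and, per list, up to 6 members by level and 3 by ratio each way. Promoter windows came from RefSeq by symbol.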

Additional observations from a re-analysis of the deposited data

Results flagged for a closer look

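Markers of dividing cells were also found in barcodes that the authors' table gives no class. Of 348 such injured barcodes with at least 3000 UMIs, 35 (10.1%, 7.11 to 13.7) had a UMI of at least 2 of the 5 class markers after thinning, and 12 of the 35 also had at least 5 of the pan-endothelial genes. In the intact library 3 of 470 unclassed barcodes (0.638%, 0.132 to 1.85) did. These barcodes enter none of the comparisons, and they were singled out because their share was above that of the intact library. Over the 516 unclassed injured barcodes kept at any depth, UMIs reached 124693 and the mitochondrial share 92.55%. The quality of the 35 was not examined.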

How the results depend on the processing

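Of 52 alternatives to the counts of higher, lower, replication and mitosis genes and to the share of cells, 44 kept the value within its limit (1.5 times for a count) and none reversed. With a filter of 50 CPM there were 106 higher, 29 lower, 25 mitosis and 22 replication genes, since fewer genes were measured. Lower genes numbered 125 with 1 CPM added, 22 with 20 CPM added, 127 with equal weights of classes and 238 in cells thinned to 3000 UMIs, against 73, and the cause was not tested. Of 228 alternative log2 ratios of single genes, 72 moved beyond their counting interval and none changed sign among those past 2-fold. Limits of 40000 UMIs per cell and of barcodes in 1 library were added after the data were seen, and left 371 and 348 higher genes. No paired analysis was possible because each condition was 1 library. EC_CAP-PV+ (13 cells) and EC_BAR (36 cells) limit what can be read from their levels.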
